A study of Mus musculus with 30 samples.

Results

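CPA-treated livers with human receptors were compared directly with CPA-treated livers with the mouse receptors. The comparison used 6 of the 30 arrays of the series: 3 from hCAR/hPXR mice and 3 from wild type mice, chosen by the labels for treatment and genotype. Genes were measured with Affymetrix expression arrays, each gene by the probe set of that gene alone with the highest mean signal over all 30 arrays, and 12795 of 18193 genes were tested. All mice were adult males on a C57BL/6J background, dosed by mouth each day.

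The groups used here were hCAR/hPXR and wild type mice given cyproterone acetate (CPA, 160 mg/kg, labelled 6 days), CARko/PXRko mice given CPA at the same dose (labelled 3 days), hCAR/hPXR and wild type mice given 1,4-dichlorobenzene (DCB, 600 mg/kg, 3 days), and hCAR/hPXR, CARko/PXRko and wild type mice given corn oil, the vehicle (3 days). Each group had 3 arrays. The hCAR/hPXR mice are humanised for both receptors, and the CARko/PXRko mice are deleted for both. The protocol describes 3 days of CPA for every genotype, against the labelled 6 days, but the labels give hCAR/hPXR and wild type the same duration. The labels do not say how the human receptors are expressed, and the design states 5 mice per group without saying that each array is a separate mouse, so p-values cover the spread among the arrays of a group, which may be technical.

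CAR (gene Nr1i3) and PXR (gene Nr1i2) are nuclear receptors of hepatocytes that sense drugs and steroids. Each pairs with RXR and binds repeats of a short half-site in DNA, and together they raise the enzymes and transporters that clear foreign compounds, with Cyp2b10 and Cyp3a11 as the classical mouse targets. The ligand-binding parts of the human and mouse proteins differ enough that some compounds activate one species' receptor and not the other's. CPA is a steroidal antiandrogen and progestin with weak glucocorticoid activity, and it is a known activator of rodent PXR.

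The hepatocyte markers were at the level of liver on all 6 arrays, with a median level over 14 measured markers of 14.53 to 14.69 log2 units on the hCAR/hPXR arrays and 14.64 to 14.70 on the wild type arrays. Arrays of the hCAR/hPXR group were less alike than those of the wild type group: correlations across genes were 0.975 to 0.980 within CPA-treated hCAR/hPXR and 0.991 to 0.993 within CPA-treated wild type, and the median SD of a gene was 0.201 and 0.125. Between the groups the correlation was 0.977 to 0.982. Depth does not apply to arrays, and the number of arrays limits the precision. The levels below are log2 RMA signals, where array medians lay at 5.36 to 5.44. Differences are hCAR/hPXR minus wild type in log2 units ± SE (3 arrays per group), with adjusted p-values from limma, unless another contrast is named. Each SE uses the pooled spread and not that of the compared groups alone.

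Of the 12795 genes tested, 35 were called at an adjusted p under 0.05, which is 0.274%. There were 18 higher in hCAR/hPXR livers (0.141%) and 17 lower (0.133%). At an unadjusted p under 0.05 the count was 1176 genes (9.19%), and the median difference over all genes was -0.01. These shares over all genes are the background for the counts given for gene lists below. In all 35 called genes the 3 hCAR/hPXR arrays lay outside the range of the 3 wild type arrays, as they did in 2430 of the genes tested (19%). A difference of at least 2-fold was found in 27 of the called genes, 13 higher and 14 lower. The count changed when single arrays were left out. It was 17, 19 and 9 without wild type replicates 1, 2 and 3. Without hCAR/hPXR replicates 1, 2 and 3 it was 13, 32 and 38. Each of these fits also had fewer arrays, and the cause of the changes was not tested. A fit with array weights, which stopped before its tolerance was reached, called 334. The genes called whichever of the 6 arrays was left out were Nr1i3, Nr1i2, Tmem223, Nebl, Cyp2c55, Tmem51, Gin1, Slc8a1 and Ddit4. Tcim lost its call in 1 of these 6 fits, and the other 25 genes lost theirs in 2 to 6 of them.

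**Figure D1:**
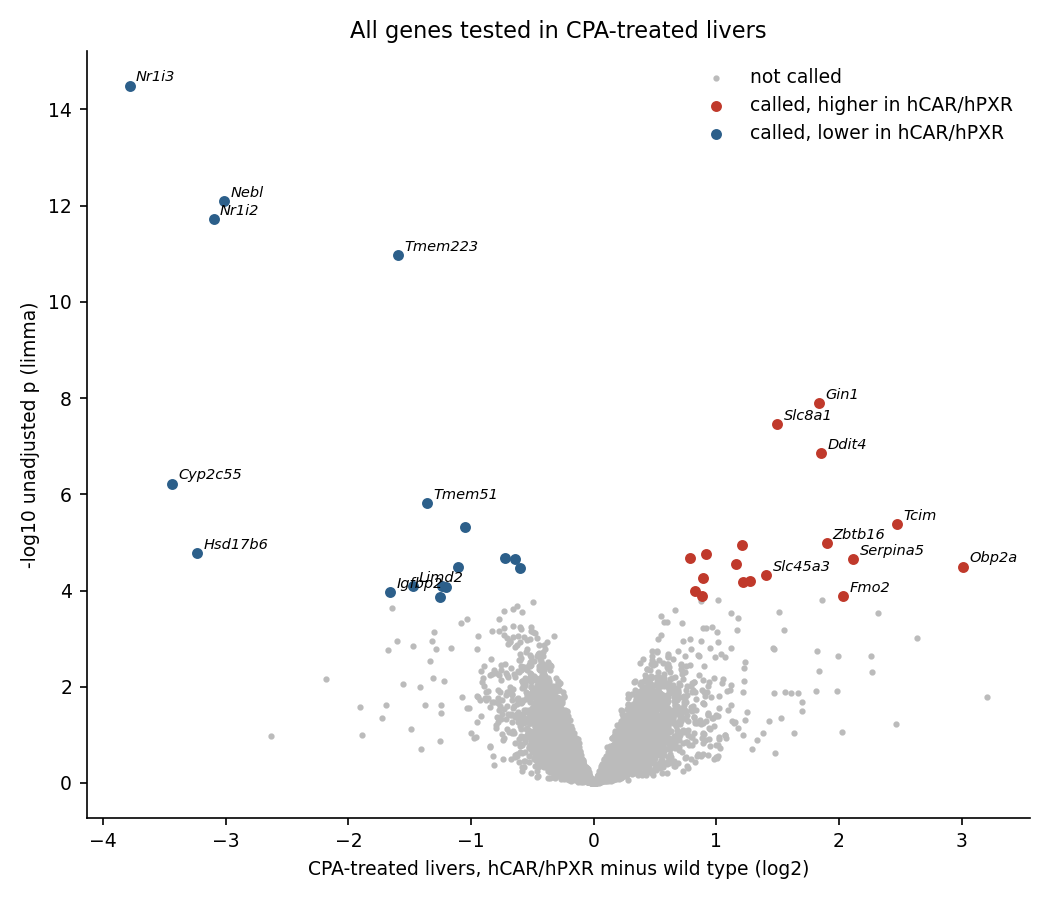
Each point is a gene tested in CPA-treated livers, with the difference hCAR/hPXR minus wild type (log2) on the x axis and -log10 of the unadjusted limma p on the y axis. The 18 called genes that were higher in hCAR/hPXR are red and the 17 that were lower are blue, and Nr1i3, Nebl, Nr1i2 and Tmem223 stand above the rest.

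The mouse receptor transcripts were the check on the labels. Nr1i3 gave 6.68, 6.74 and 6.47 on the hCAR/hPXR arrays and 10.47, 10.27 and 10.50 on the wild type arrays. The groups were far apart, and Nr1i3 fell by 3.78 ± 0.21 (adjusted p = 4.09e-11, 13.8-fold). Nr1i2 gave 4.72, 4.43 and 4.91 in hCAR/hPXR, all under the array medians, and 8.06, 7.67 and 7.63 in wild type. It fell by 3.10 ± 0.23 (adjusted p = 8.01e-09), a lower bound, and its second probe set differed by -2.77. Both receptor genes also lay at 6.76 to 6.86 and 4.59 to 4.73 in CPA-treated CARko/PXRko livers, so these probe sets do not tell replaced from deleted receptors. The Nr1i3 signal in hCAR/hPXR was no higher than with the receptor deleted, so the size of its fall may also be a lower bound. Nr1i3 and Nr1i2 were the called members among 16 receptors and partner proteins (12.5%, beside 0.133% of all genes called lower). Both are the receptors replaced in these mice, so this share is not a result about the list, and its other 14 members were not called. Whether the probes lie inside the replaced part of each gene is not known here, and the human transcripts were not measured.

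Tmem223, a gene for a mitochondrial membrane protein on chromosome 19, away from Nr1i3 on chromosome 1 and Nr1i2 on chromosome 16, separated the hCAR/hPXR group in every treatment. It gave 8.08, 7.92 and 7.96 in CPA-treated hCAR/hPXR livers, against 9.63, 9.62 and 9.50 in wild type, and fell by 1.60 ± 0.13 (adjusted p = 3.44e-08). CPA-treated CARko/PXRko livers gave 9.79, 9.88 and 9.42, with 2 arrays above the wild type range and 1 below it. Tmem223 differed by -2.07 under corn oil and by -1.64 under DCB, and it was called in both. Tomm40l, the neighbour of Nr1i3 on chromosome 1 and a mitochondrial import channel gene, was 0.88 ± 0.20 higher in hCAR/hPXR and was not called (adjusted p = 0.057). Its differences of 0.81 under corn oil and 0.88 under DCB were of like size. Its other probe set, above the array medians on 1 of the 30 arrays, differed by -0.86 in the opposite direction under CPA with no overlap.

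Nr1i3, Nr1i2 and Tmem223 were the 3 genes called between these genotypes under corn oil (0.0234%, with 185 genes at an unadjusted p under 0.05). They were also called under DCB, with Pik3c3 and with Uox, which was named after its values were seen, for 5 genes in all (0.0391%). The other 32 genes called under CPA were not called at rest, where their differences ran from -0.77 to 1.20.

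The promoters of the called genes were read for the half-sites that CAR and PXR use, AGGTCA and AGTTCA on either strand, in the 250 bases before each RefSeq start (assembly GRCm38.p6). Of 32851 windows in the table, 24.2% held at least 1. Among called genes, 30 had at least 1 window and 21 had exactly 1, and a half-site was found for 11 of the 30 (36.7%), counting any of a gene's windows, and for 4 of the 21 (19%): C8a, Obp2a, Serpina5 and Ufsp1. A gene with several windows has several chances of a match, so its share cannot be set directly against that of single windows. Pairs of half-sites in the same direction with 3 or 4 bases between them, and the glucocorticoid response elements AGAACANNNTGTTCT and AGAACANNNTGTCCT, were found for no called gene, and in 0.0122%, 0.0244% and 0.0244% of all windows. The sequences of the 2 largest falls and the 2 largest rises that were not called at rest and have 1 window are shown so that the differences can be set beside them, 5′ to 3′ on the gene's strand, with half-sites in capitals.
Cyp2c55 (chr19:39006769-39007018, plus strand): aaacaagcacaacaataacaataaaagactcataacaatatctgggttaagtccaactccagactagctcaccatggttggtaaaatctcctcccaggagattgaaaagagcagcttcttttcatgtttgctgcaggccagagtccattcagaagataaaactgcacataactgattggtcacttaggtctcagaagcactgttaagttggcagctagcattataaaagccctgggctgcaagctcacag
Tmem51 (chr4:142084305-142084554, minus strand): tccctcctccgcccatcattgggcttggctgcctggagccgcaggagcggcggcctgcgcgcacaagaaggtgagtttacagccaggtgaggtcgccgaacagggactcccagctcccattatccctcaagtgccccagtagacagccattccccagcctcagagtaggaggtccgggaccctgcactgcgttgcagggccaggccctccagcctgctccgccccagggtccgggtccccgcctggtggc
Obp2a (chr2:25699824-25700073, plus strand): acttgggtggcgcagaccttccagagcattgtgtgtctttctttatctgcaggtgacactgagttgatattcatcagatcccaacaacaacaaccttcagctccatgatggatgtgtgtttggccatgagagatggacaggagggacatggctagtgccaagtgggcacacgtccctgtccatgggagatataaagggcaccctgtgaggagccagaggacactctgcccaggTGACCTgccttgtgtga
Serpina5 (chr12:104100863-104101112, plus strand): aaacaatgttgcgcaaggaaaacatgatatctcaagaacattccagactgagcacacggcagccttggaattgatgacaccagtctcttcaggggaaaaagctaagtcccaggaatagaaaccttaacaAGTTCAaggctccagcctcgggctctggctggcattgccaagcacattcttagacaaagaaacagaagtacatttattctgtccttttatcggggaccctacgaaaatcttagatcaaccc
Cyp2c55 and Tmem51, both lower in hCAR/hPXR, held no half-site in this window. Obp2a held 1, starting 17 bases before the start, and Serpina5 held 1, starting 121 bases before it. A match is a description of these letters, and binding was not measured. Sequence further upstream, and pairs of half-sites in other directions or at other spacings, were not searched.

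The classical target genes of CAR and PXR were strongly expressed in both genotypes under CPA. Cyp2b10, the phenobarbital-type P450 raised through CAR, gave 11.95, 12.76 and 12.90 in hCAR/hPXR livers and 13.19, 12.80 and 13.01 in wild type livers. The ranges overlapped, and the difference of -0.46 ± 0.77 was not called (adjusted p = 0.915). The CPA effect, CPA minus corn oil, sets arrays labelled 6 days against arrays labelled 3 days, so here and below compound and labelled duration cannot be told apart in it. It was 6.13 ± 0.77 for Cyp2b10 in hCAR/hPXR (adjusted p = 2.76e-05) and 7.28 ± 0.77 in wild type (adjusted p = 6.73e-06), and the difference of these effects, -1.16 ± 1.09, was not called. In CPA-treated CARko/PXRko livers, labelled 3 days and therefore only set beside the others here and below, it gave 10.30, 11.22 and 8.38. The other Cyp2b10 probe sets, which may read related Cyp2b genes, differed by -0.41 and -0.34.

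Cyp3a11, the main CYP3A enzyme raised through PXR, gave 14.84, 14.87 and 14.88 in hCAR/hPXR and 14.97, 14.94 and 14.94 in wild type. These levels were close to the highest signal on any array, 15.21 to 15.34, where differences are compressed. Its difference of -0.08 ± 0.09 was not called, although the 6 values did not overlap. The CPA effect on Cyp3a11 was 0.07 ± 0.09 in hCAR/hPXR, not called, against a rise of 0.45 ± 0.09 in wild type (adjusted p = 0.011). The difference of these effects was not called.

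Cyp2c55, a CYP2C enzyme of liver and gut that is known as a CAR and PXR target in mice, had the largest fall of any gene outside the receptors themselves. It gave 8.36, 8.28 and 8.55 in CPA-treated hCAR/hPXR livers and 11.88, 11.81 and 11.82 in CPA-treated wild type livers. It fell by 3.44 ± 0.51 (10.9-fold, adjusted p = 0.00095), where the SE is from the pooled spread, with no overlap and little spread in either group. Its promoter window, shown above, held no half-site. Corn oil gave 8.73, 9.24 and 8.61 in hCAR/hPXR and 7.86, 7.81 and 7.85 in wild type. The CPA effect was -0.46 ± 0.51 in hCAR/hPXR and was not called, against a rise of 4.00 ± 0.51 in wild type (adjusted p = 7.92e-05). The difference of the genotype difference, CPA minus corn oil, was -4.46 ± 0.72 (adjusted p = 0.0087). CARko/PXRko livers gave 7.79, 8.66 and 7.37 with CPA and 9.94, 10.02 and 10.11 with corn oil. The CPA arrays of that genotype all lay under the wild type range, and its corn oil arrays all lay above those of hCAR/hPXR and wild type, a difference that was not tested. Under DCB the genotypes overlapped, with 12.57, 12.73 and 10.88 in hCAR/hPXR and 12.66, 10.59 and 11.09 in wild type. The genotype difference under CPA minus that under DCB was -4.05 ± 0.72 (adjusted p = 0.022). In bulk liver, fewer cells of a type and less RNA per cell cannot be told apart, here and below.

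Nebl, which encodes nebulette, an actin-binding protein of the heart muscle Z-disc, was also high in CPA-treated wild type livers. It gave 4.60, 4.99 and 5.01 in hCAR/hPXR, under the array medians, and 8.44, 7.42 and 7.79 in wild type. Nebl fell by 3.01 ± 0.22 (adjusted p = 5.17e-09), a lower bound. Signals lay between 4.31 and 5.01 on the corn oil arrays of both genotypes, between 4.60 and 4.98 on their DCB arrays, and between 4.72 and 4.80 in CPA-treated CARko/PXRko livers. Among these groups, the 3 CPA-treated wild type arrays were the ones above the array medians. The CPA effect in wild type was 3.27 ± 0.22 (adjusted p = 1.87e-09), and the genotype difference under CPA minus that under corn oil was -3.06 ± 0.31 (adjusted p = 8.47e-06). The 2 other Nebl probe sets were dim, that is, under the array medians, on all 30 arrays.

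Of 11 CYP2B and CYP2C enzymes measured, Cyp2c55 was called lower (9.09%, beside 0.133% of all genes) and none higher. The median difference was -0.19, beside -0.01 over all genes. Cyp2c23, an arachidonic acid epoxygenase, differed by -0.92 ± 0.29 without a call (adjusted p = 0.28), and Cyp2c29 differed by -0.18 ± 0.15. None of the 4 CYP3A genes measured was called by limma (median -0.18, with 1 at an unadjusted p under 0.05). Cyp3a44, a CYP3A gene known as female-biased, gave 5.65, 6.40 and 6.27 in hCAR/hPXR and 6.95, 7.09 and 7.37 in wild type. Its difference of -1.03 ± 0.25 was not called (adjusted p = 0.097). Against DCB, where Cyp3a44 was 0.96 higher in hCAR/hPXR, the genotype difference shifted by -1.99 ± 0.35 (adjusted p = 0.022).

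Ces2a, a carboxylesterase that hydrolyses drugs and lipids, followed the same order without a call. It gave 13.80, 13.97 and 13.59 in hCAR/hPXR and 14.55, 14.55 and 14.57 in wild type (-0.77 ± 0.20, adjusted p = 0.13). The CPA effect on Ces2a was 0.70 ± 0.20 in hCAR/hPXR (adjusted p = 0.041) and 2.08 ± 0.20 in wild type (adjusted p = 1.27e-06). The difference of these effects was not called. The genotype difference under CPA minus that under DCB was -1.55 ± 0.28 (adjusted p = 0.022). None of 9 carboxylesterases, 20 glutathione transferases, 21 glucuronidation and sulfation enzymes or 21 transporters was called, and their medians were -0.04, -0.07, -0.03 and 0.04. At an unadjusted p under 0.05 there were 1, 1, 0 and 0 of them.

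Of 4 flavin monooxygenases tested, enzymes that oxidise the nitrogen and sulfur atoms of drugs, Fmo2 and Fmo5 were called higher in hCAR/hPXR, and Fmo1 (0.42, adjusted p = 0.52) and Fmo4 (0.55, adjusted p = 0.48) were not called. Fmo2 gave 10.94, 11.55 and 10.39 in hCAR/hPXR and 9.17, 8.58 and 9.04 in wild type. The groups did not overlap, and Fmo2 rose by 2.03 ± 0.45 (adjusted p = 0.049). Its CPA effect was 3.69 ± 0.45 in hCAR/hPXR (adjusted p = 1.63e-05) and 1.78 ± 0.45 in wild type (adjusted p = 0.049). The difference of these effects was not called. CPA-treated CARko/PXRko livers gave 10.98, 10.12 and 11.75 for Fmo2. Fmo5 gave 13.80, 13.62 and 13.46 in hCAR/hPXR and 12.88, 12.77 and 12.59 in wild type, and rose by 0.88 ± 0.19 (adjusted p = 0.049). These 2 were the called members among 30 other xenobiotic enzymes (6.67%, beside 0.141% of all genes called higher), where the median was -0.04. Fmo5 lost its call without any one of the 6 arrays, and Fmo2 in 5 of the 6 fits. Of the other probe sets, 3 for Fmo2 differed by 1.70 to 1.87 with no overlap and a dim one by 0.21, while those for Fmo5 differed by 0.96 and 1.22.

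**Figure D2:**
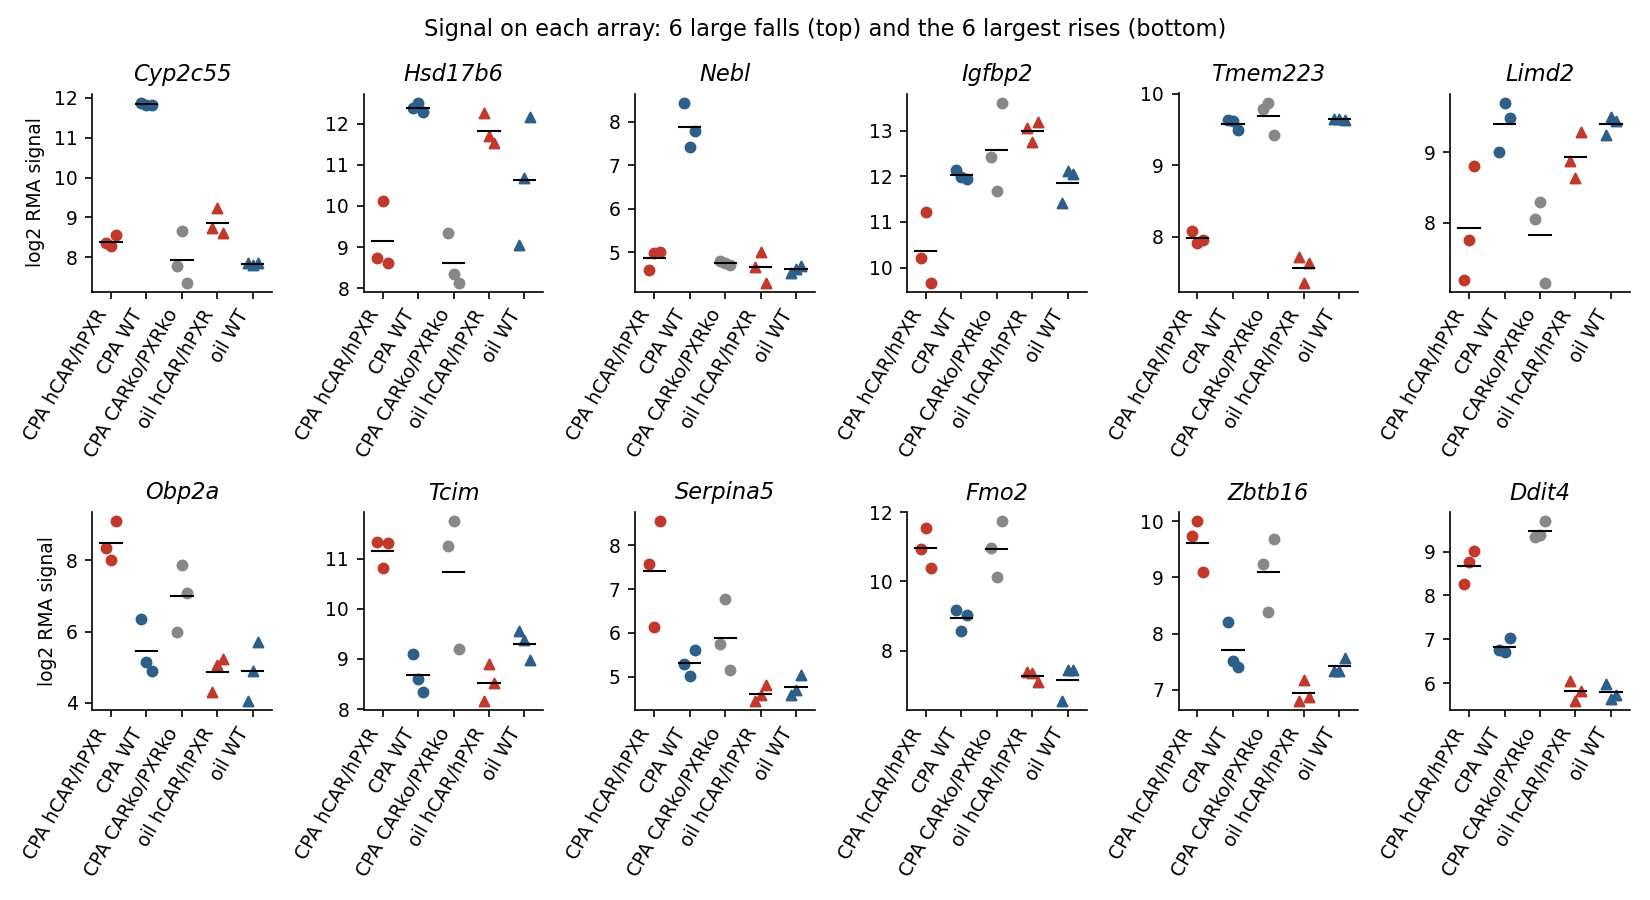
Points are the log2 RMA signals of single arrays and bars are group means, for CPA (circles) in hCAR/hPXR, wild type and CARko/PXRko and for corn oil (triangles) in hCAR/hPXR and wild type. The top row has the 6 largest falls apart from Nr1i3 and Nr1i2, and the bottom row the 6 largest rises. Cyp2c55 and Nebl stand out in CPA-treated wild type, with values of 11.81 to 11.88 and 7.42 to 8.44.

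Hsd17b6, a male-biased hydroxysteroid dehydrogenase that acts on androgen metabolites, gave 8.74, 10.12 and 8.61 in hCAR/hPXR and 12.38, 12.51 and 12.27 in wild type. It fell by 3.23 ± 0.60 (9.39-fold, adjusted p = 0.015). Under corn oil the group means were in the opposite order, but the ranges overlapped and there was no call. Corn oil gave 12.26, 11.70 and 11.53 in hCAR/hPXR and 9.06, 10.68 and 12.17 in wild type, the last group being wide. With CPA it fell by 2.68 ± 0.60 in hCAR/hPXR livers (adjusted p = 0.0096), and the effect in wild type, 1.75 ± 0.60, was not called. The genotype difference shifted by -4.43 ± 0.85 between corn oil and CPA (adjusted p = 0.047). CPA-treated CARko/PXRko livers gave 9.35, 8.36 and 8.14. Its second probe set was dim on every array.

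Igfbp2, which binds insulin-like growth factors in plasma, gave 10.21, 11.21 and 9.67 in hCAR/hPXR and 12.14, 11.98 and 11.94 in wild type. It fell by 1.66 ± 0.36 (adjusted p = 0.043). Corn oil gave 12.75 to 13.19 in hCAR/hPXR and 11.42 to 12.12 in wild type, so hCAR/hPXR was the higher group at rest, without a call. In hCAR/hPXR it fell by 2.64 ± 0.36 with CPA (adjusted p = 6.48e-05), against a change of 0.16 ± 0.36 in wild type. The genotype difference shifted by -2.80 ± 0.51 between corn oil and CPA (adjusted p = 0.026). In CPA-treated CARko/PXRko livers Igfbp2 gave 12.42, 11.67 and 13.62, above the hCAR/hPXR range.

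Of 23 male-biased liver genes measured, Hsd17b6 and C8a were called lower (8.7%, beside 0.133% of all genes) and none higher, 20 were lower in sign, and the median was -0.36. Other lists leaned the same way in sign, with 24 of 29 complement and coagulation, 23 of 27 interferon-stimulated and 14 of 17 bile acid synthesis genes lower. Some leaned the opposite way, as with 23 of 26 fatty acid synthesis genes higher. C8a, the alpha chain of complement factor C8, gave 11.62, 11.96 and 11.98 in hCAR/hPXR and 13, 12.92 and 12.95 in wild type (-1.11 ± 0.22, adjusted p = 0.019). Elovl3, a fatty acid elongase, differed by -1.69 ± 0.70 without a call (adjusted p = 0.45). Of 17 female-biased genes, Fmo2 was called higher (5.88%, beside 0.141% of all genes) and none lower, 11 were higher in sign, and the median was 0.19. Among 22 genes of steroid metabolism Hsd17b6 was called (4.55%), and among 16 genes of the growth hormone and IGF axis Igfbp2 was (6.25%). C8a was also the called member of 29 complement and coagulation genes (3.45%), whose median was -0.17. These 3 shares stand beside 0.133% of all genes called lower.

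Zbtb16, a zinc finger transcription factor known as a glucocorticoid target, gave 9.73, 10 and 9.10 in hCAR/hPXR and 8.21, 7.52 and 7.40 in wild type. It rose by 1.90 ± 0.34 (adjusted p = 0.011). Its CPA effect was 2.66 ± 0.34 in hCAR/hPXR (adjusted p = 3.51e-05), against 0.30 ± 0.34 in wild type, which was not called. The difference of these effects was not called. Under DCB the difference was -1.29, not called, and the genotype difference under CPA minus that under DCB was 3.18 ± 0.48 (adjusted p = 0.0053). Of its other probe sets, 1 differed by 1.91 with no overlap and 1 by 0.31 with overlap.

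Ddit4, an inhibitor of mTORC1 that glucocorticoids, hypoxia and stress raise, gave 8.26, 8.77 and 9.01 in hCAR/hPXR and 6.76, 6.71 and 7.02 in wild type. It rose by 1.85 ± 0.25 (adjusted p = 0.00025). Corn oil arrays of both genotypes lay between 5.59 and 6.05, and the CPA effect on Ddit4 was 2.86 ± 0.25 in hCAR/hPXR (adjusted p = 2.71e-07) and 1.04 ± 0.25 in wild type (adjusted p = 0.039). CPA-treated CARko/PXRko livers gave 9.33, 9.39 and 9.70, above both. The shift of the genotype difference from corn oil to CPA was 1.82 ± 0.35 (adjusted p = 0.049).

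Of 20 glucocorticoid-responsive genes measured, Zbtb16 was called higher (5%, beside 0.141% of all genes) and none lower, with a median of 0.45. Dusp1, a phosphatase that switches off MAP kinases, gave 11.74, 9.96 and 10.63 in hCAR/hPXR and 8.89, 9.03 and 8.84 in wild type (1.86 ± 0.41, adjusted p = 0.056). Fkbp5, a co-chaperone of the glucocorticoid receptor, was 0.99 ± 0.29 higher without a call (adjusted p = 0.22). Its CPA effects were 3.12 ± 0.29 in hCAR/hPXR (adjusted p = 5.05e-07) and 2.04 ± 0.29 in wild type (adjusted p = 0.00041). The difference of these effects was not called. Cdkn1a, a cell cycle inhibitor, was 1.83 ± 0.59 higher without a call. Ddit4 was the called member among 27 ER stress and ATF4 genes (3.7%, beside 0.141% of all genes called higher, median 0.13). In that list 18 genes were higher in sign and 9 lower, and Asns and Trib3 differed by -1.49 and -1.03 without a call. None of 26 NRF2 target genes was called (median 0.22, with 5 at an unadjusted p under 0.05). Gadd45b, a stress gene known as a coactivator of CAR, was 1.51 ± 0.35 higher without a call (adjusted p = 0.078).

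The remaining large rises were of varied function. Obp2a, an odorant-binding lipocalin, gave 8.34, 8 and 9.10 in hCAR/hPXR and 6.34, 5.16 and 4.90 in wild type, and rose by 3.01 ± 0.59 (adjusted p = 0.019). Of the 3 wild type arrays 1 was above the array medians, so the size of this rise and its rank are not well measured. It lay between 4.05 and 5.70 under corn oil in both genotypes. Tcim, a small regulator linked to Wnt signalling, gave 11.33, 10.81 and 11.31 in hCAR/hPXR and 9.09, 8.61 and 8.34 in wild type. Tcim rose by 2.47 ± 0.42 (adjusted p = 0.0054), its second probe set differed by 2.15, and the genotype difference shifted by 3.25 ± 0.59 between corn oil and CPA (adjusted p = 0.026). Serpina5, the protein C inhibitor, gave 7.57, 6.14 and 8.56 in hCAR/hPXR and 5.28, 5.02 and 5.61 in wild type. It rose by 2.12 ± 0.40 (adjusted p = 0.015), a lower bound since 2 of 3 wild type arrays and the wild type mean lay under the array medians, and the hCAR/hPXR arrays were widely spread.

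Slc8a1, the sodium-calcium exchanger, gave 6.38, 6.14 and 6.31 in hCAR/hPXR and 5.06, 4.66 and 4.63 in wild type, with all 3 wild type arrays under the array medians. It rose by 1.50 ± 0.19 (adjusted p = 7.31e-05), a lower bound, and CPA-treated CARko/PXRko livers gave 4.58, 4.83 and 5.51. Slc8a1 was highest in CPA-treated hCAR/hPXR livers among these groups, since corn oil and DCB arrays of both genotypes lay between 4.40 and 5.07. The genotype difference under CPA exceeded that under corn oil by 1.65 ± 0.26 (adjusted p = 0.0087) and that under DCB by 1.43 ± 0.26 (adjusted p = 0.027). Its 3 other probe sets were dim and differed by -0.24 to 0.06.

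Gin1, which derives from a retrotransposon integrase, gave 9.43, 9.14 and 8.32 in hCAR/hPXR and 7.36, 7.06 and 6.97 in wild type. It rose by 1.83 ± 0.22 (adjusted p = 3.31e-05), and its second probe set differed by 0.68 with no overlap. The genotype difference under CPA exceeded that under corn oil by 1.87 ± 0.31 (adjusted p = 0.0087) and that under DCB by 1.71 ± 0.31 (adjusted p = 0.022). CPA-treated CARko/PXRko livers gave 8.13, 8.50 and 8.09, above the wild type range, with 1 array inside the hCAR/hPXR range.

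The other called rises were smaller. Slc45a3, a sugar transporter, rose by 1.41 ± 0.28, Rpl12, a ribosomal protein gene, by 1.22 ± 0.25, and Snhg3, a host gene of small nucleolar RNAs, by 1.21 ± 0.22, a lower bound with all 3 wild type arrays under the array medians. The chromatin remodeller Chd1l rose by 1.16 ± 0.22 and the Mediator subunit Med17 by 0.89 ± 0.18. Gm11827 (1.27 ± 0.26) and the zinc finger gene Zfp160 (0.92 ± 0.17) completed the largest 15. A further 2 rises, Cluap1, a ciliary protein gene (0.78 ± 0.15), and 1600020E01Rik (0.83 ± 0.18), were named after their values were seen. Adjusted p-values of these genes ran from 0.011 to 0.042.

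Among the smaller falls were a receptor that acts on Wnt signalling, a ketone body enzyme and a junction protein. Lgr5, a receptor that amplifies Wnt signals and is expressed in pericentral hepatocytes, gave 5.92, 5.81 and 5.87 in hCAR/hPXR and 6.91, 7.14 and 7.16 in wild type. It fell by 1.21 ± 0.25 (adjusted p = 0.035) and lost its call without any one of the 6 arrays. Lgr5 was the called member of 14 pericentral genes (7.14%, beside 0.133% of all genes called lower), whose median was -0.25. Bdh1, the mitochondrial 3-hydroxybutyrate dehydrogenase, fell by 1.23 ± 0.26 (adjusted p = 0.035), and its second probe set differed by -2.02. Against corn oil, Bdh1 fell by 2.53 ± 0.26 with CPA in hCAR/hPXR (adjusted p = 1.77e-06) and fell by 1.13 ± 0.26 in wild type (adjusted p = 0.029). The difference of these effects was not called. Cldn3, a tight junction protein gene of bile ducts and hepatocytes, gave 9.57, 9.91 and 9.65 in hCAR/hPXR and 10.76, 10.73 and 10.80 in wild type. It fell by 1.05 ± 0.18 (adjusted p = 0.0056), and its other 3 probe sets differed by -0.90 to -0.98.

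Tmem51, a transmembrane protein gene, gave 7.65, 7.83 and 7.19 in hCAR/hPXR and 8.85, 9.08 and 8.81 in wild type, and fell by 1.36 ± 0.21 (adjusted p = 0.0022). Limd2, a LIM domain protein gene, fell by 1.48 ± 0.31 (adjusted p = 0.035), with 1 other probe set above the array medians at -0.79. Gm10804 fell by 1.25 ± 0.28 (adjusted p = 0.049) and lost its call without any one array. The pancreatic elastase gene Cela2a (-0.72 ± 0.14) and the chemokine receptor gene Ccr6 (-0.64 ± 0.12) were close to background in both genotypes. All 3 hCAR/hPXR arrays lay under the array medians for each gene, and 1 of 3 wild type arrays lay above them for Ccr6 and 2 of 3 for Cela2a, so the sizes of these called differences are not well measured. Ufsp1, a UFM1 peptidase gene named after its values were seen, fell by 0.60 ± 0.12 (adjusted p = 0.019), while its other probe set differed by 0.27 in the opposite direction.

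The CPA effect in each genotype was set beside the genotype difference for the 35 called genes. These comparisons share arrays, so the counts describe the called genes and support nothing. Of the 18 rises, 15 had a called CPA rise in hCAR/hPXR livers and 2 (Ddit4 and Fmo2) in wild type livers, and their median CPA effect was 1.77 in hCAR/hPXR and 0.09 in wild type. Of the 17 falls, 8 had a called CPA fall in hCAR/hPXR, 1 (Bdh1) had one in wild type, and 4 (Cyp2c55, Nebl, Gm10804 and Ufsp1) had a called CPA rise in wild type. Their median CPA effect was -0.64 in hCAR/hPXR and 0.26 in wild type. Over all genes, 566 were called for CPA in hCAR/hPXR (4.42%, with 1.52% higher and 2.9% lower) and 143 in wild type (1.12%, with 0.485% higher and 0.633% lower).

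**Figure D3:**
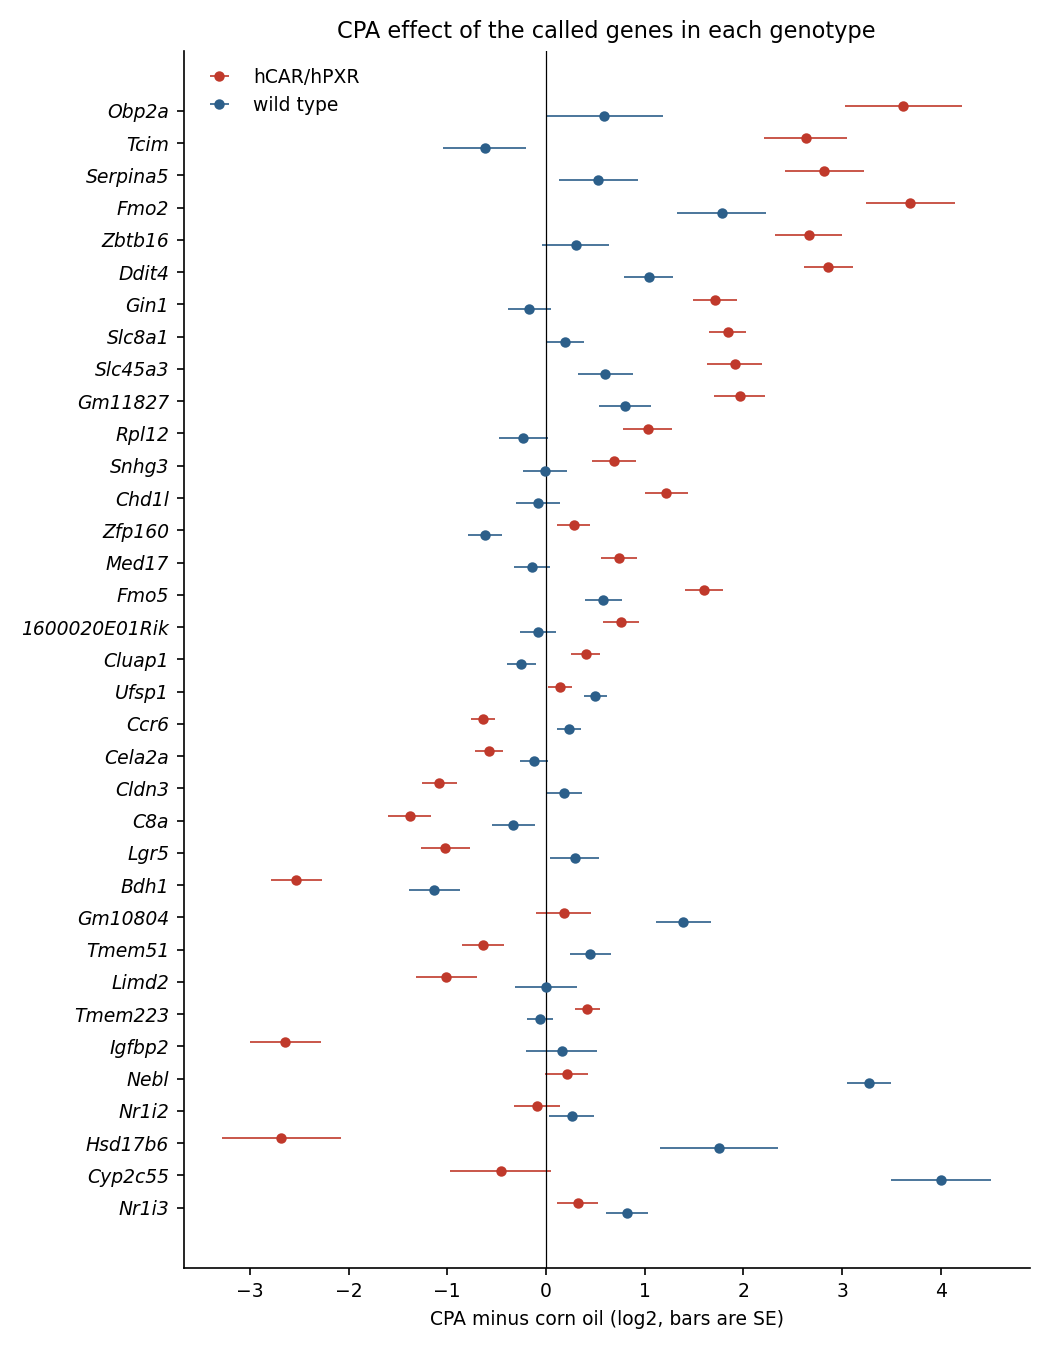
The CPA effect (CPA minus corn oil, log2, bars are SE) of the 35 called genes is shown for hCAR/hPXR (red, upper) and wild type (blue, lower). Cyp2c55 has effects of -0.46 in hCAR/hPXR and 4.00 in wild type, Nebl of 0.21 in hCAR/hPXR and 3.27 in wild type, and Obp2a of 3.62 in hCAR/hPXR and 0.59 in wild type. The difference of the effects was called for Cyp2c55 and Nebl and not for Obp2a.

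The genotype difference itself was compared between treatments. Between CPA and corn oil, 8 genes were called (0.0625%, with 628 at an unadjusted p under 0.05). Slc8a1, Gin1, Tcim and Ddit4 were higher (0.0313%), and Nebl, Cyp2c55, Igfbp2 and Hsd17b6 lower (0.0313%). Without wild type CPA replicate 3 the count was 1, and over the 12 arrays of these groups left out in turn it ran from 1 to 10. Between CPA and DCB, 8 were called (0.0625%, with 795 at an unadjusted p under 0.05). Zbtb16, Gin1 and Slc8a1 were higher (0.0234%), and Nebl, Cyp2c55, Cyp3a44, Ces2a and Ccr6 lower (0.0391%), with Ccr6 close to background. That count ran from 2 to 10 over the arrays left out. The CPA arrays are labelled 6 days and the corn oil and DCB arrays 3 days, so compound and labelled duration cannot be told apart in either set of differences.

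**Figure D4:**
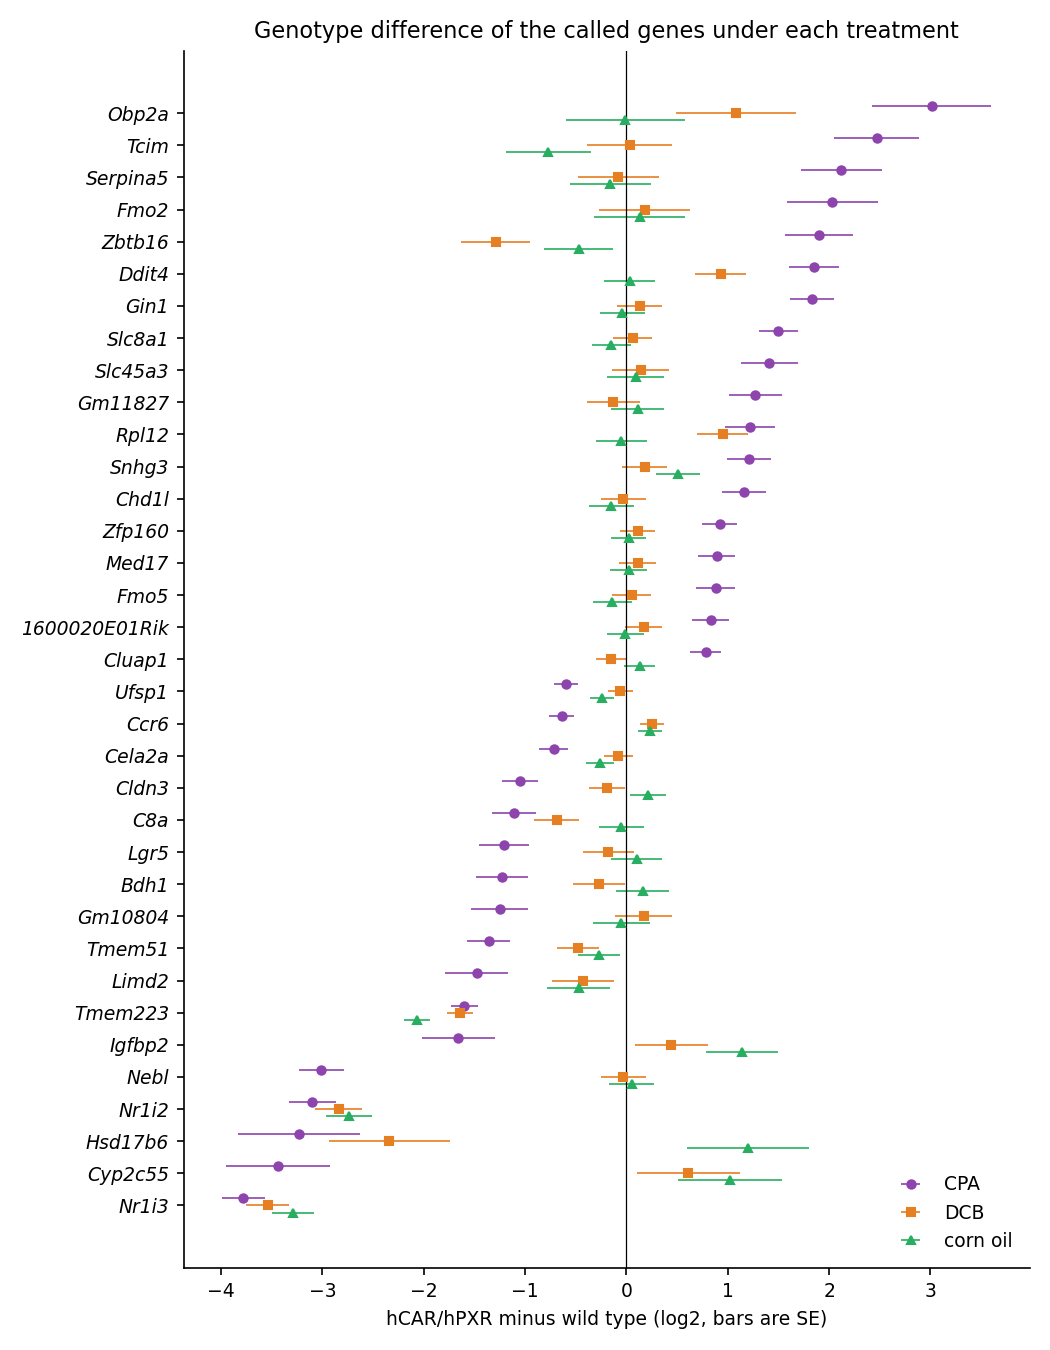
For each of the 35 called genes, the difference hCAR/hPXR minus wild type (log2, bars are SE) is shown under CPA, DCB and corn oil. Nr1i3, Nr1i2 and Tmem223 differ under all 3 treatments, and the other corn oil differences run from -0.77 to 1.20.

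Genes of lipid metabolism were measured as 4 lists, and no member of any was called. None of 26 fatty acid synthesis genes was called by limma and 4 had an unadjusted p under 0.05, but 23 were higher in sign and the median difference was 0.82, beside -0.01 over all genes. Replicate 1 of hCAR/hPXR carried much of it: the median level of the list was 11.92, 10.53 and 10.65 on the hCAR/hPXR arrays and 9.92, 10.19 and 10.16 on the wild type arrays, and without that array the median difference was 0.43. Pnpla3, a lipid droplet enzyme, gave 9.87, 8.73 and 6.32 in hCAR/hPXR and 6.04, 6.07 and 6.00 in wild type (2.27 ± 0.73, adjusted p = 0.29). Cd36, a fatty acid transporter, gave 11.15, 9.31 and 11.03 in hCAR/hPXR and 8.23, 8.40 and 8.91 in wild type (1.98 ± 0.73, adjusted p = 0.39). None of 23 PPAR alpha target genes was called and 6 had an unadjusted p under 0.05 (median 0.26, and 0.15 without hCAR/hPXR replicate 1). Acot1, an acyl-CoA thioesterase, gave 11.62, 9.48 and 9.57 in hCAR/hPXR and 7.22, 8.20 and 7.34 in wild type (2.64 ± 0.70, adjusted p = 0.15), and it was 1.22 higher in hCAR/hPXR at rest without a call.

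None of 17 bile acid synthesis genes (median -0.18), 20 cholesterol genes (-0.05), 27 interferon-stimulated genes (-0.35) or 28 cell cycle genes (-0.08) was called by limma, and 1, 0, 4 and 4 of them had an unadjusted p under 0.05. Irf1, an interferon-response transcription factor, differed by -0.73 ± 0.17 without a call (adjusted p = 0.078), and Cdt1, a DNA replication licensing factor, by -1.30 ± 0.34 (adjusted p = 0.13). Rrm2, of the same cell cycle list as Cdt1, was 1.47 higher without a call (adjusted p = 0.395). In that list 12 genes were higher in sign and 16 lower.

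No tested member was called by limma in the lists of AHR targets, glucose metabolism, p53 and Gadd45 genes, oncofetal genes, heat shock chaperones, metal and heme genes, acute phase proteins, MHC class I, the circadian clock and periportal genes. Their medians ran from -0.06 for the acute phase proteins to 0.31 for the 5 AHR targets, and from 0 to 8 members of each had an unadjusted p under 0.05, with most among the 25 metal and heme genes. Dbp, a clock output factor, gave 11.37, 6.55 and 10.42 in hCAR/hPXR and 11.38, 11.51 and 11.99 in wild type. Its difference of -2.18 ± 0.74 was not called (adjusted p = 0.332), and without hCAR/hPXR replicate 2 it was -0.74.

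Markers of other cell types were measured beside these results, and their part in them was not tested. None of 15 Kupffer cell and macrophage, 16 lymphocyte and antigen presentation, 6 neutrophil, 15 stellate cell and fibroblast, 14 endothelial, 6 cholangiocyte or 16 skeletal muscle markers tested was called. Their median differences were -0.01, -0.22, -0.07, -0.06, 0.19, -0.04 and -0.02, and 2, 4, 1, 0, 2, 2 and 0 of them had an unadjusted p under 0.05. Summed log2 levels cover all measured members of a list, tested or not. The sum over 18 lymphocyte and antigen presentation genes was 102.9 to 105.2 in hCAR/hPXR and 107.5 to 108.7 in wild type. For the 15 Kupffer cell genes it was 115.9 to 129.2 and 120.3 to 122.2. H2-Aa, an MHC class II gene, gave 5.77, 6.51 and 6.39 in hCAR/hPXR and 7.50, 8.19 and 8.02 in wild type without a call (-1.68 ± 0.47, adjusted p = 0.19). Its other probe sets differed by -0.79 to -0.02. Ighm, an immunoglobulin gene of the same list, was 1.61 higher with no overlap and no call (adjusted p = 0.395). The other Ighm probe sets differed by -0.22 to 1.04. Of the 16 genes tested in that list, 3 were higher in sign and 13 lower. The lists of fat, adrenal cortex, squamous epithelium and red blood cell genes had 2 to 6 members tested and none called. Of 7 pancreas acinar genes tested, Cela2a was called (14.3%, beside 0.133% of all genes called lower). All 7 were lower in sign and the median was -0.28. The summed level over the 10 measured genes of this list was 54.3 to 55.9 in hCAR/hPXR and 56.7 to 58.7 in wild type.

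**Figure D5:**
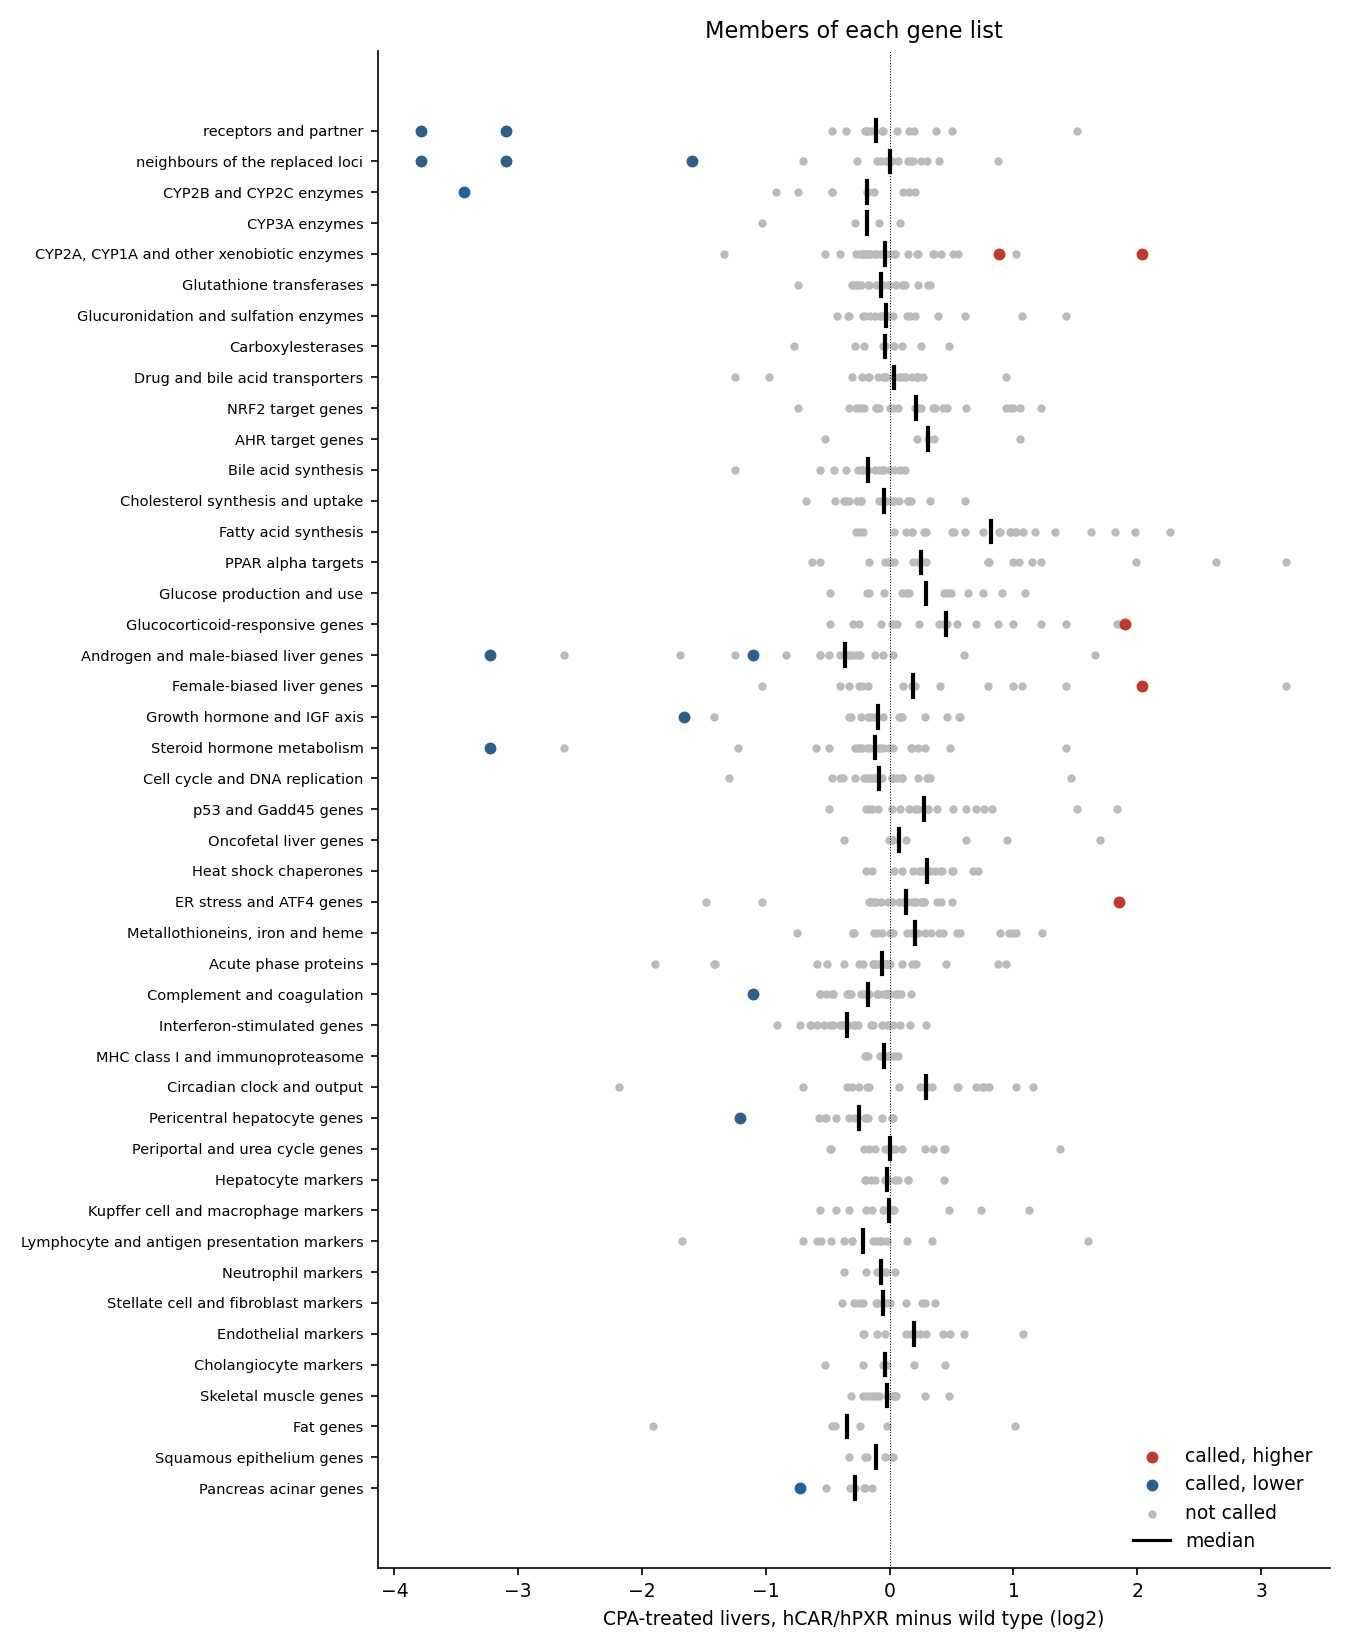
Each point is a member of a gene list, placed by its difference hCAR/hPXR minus wild type in CPA-treated livers (log2), with called members coloured and the list median as a bar. Lists with fewer than 4 members tested are not drawn, and the fatty acid synthesis list has a median of 0.82 with no called member.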

How the data were processed

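The 10 groups of the series have 3 arrays each. The deposited values are log2 probe set signals made with RMA, per the submitters' processing notes, and its version is not given in the sources used here.

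Each gene was read by its single-gene probe set (platform annotation) with the highest mean over the 30 arrays. It was tested when that signal exceeded the array median on at least 3 arrays. limma 3.58.1 in R 4.3.3 was fitted to all 30 arrays with a mean per group (two-sided moderated tests, 20 residual degrees of freedom, 3.62 prior), and each comparison was adjusted over 12795 genes by the Benjamini-Hochberg method. The fit was tested on simulated data.

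The members, lists and tests were chosen with earlier results of these data known. Named genes were Nr1i3, Nr1i2, Cyp2b10, Cyp3a11, the 15 largest called rises and falls without overlap between groups, up to 4 members per list with the smallest p, and the 5 smallest p each way for both differences of differences. Of 971 list memberships in 47 lists, 840 matched a measured gene, 4 through an older symbol, and several genes are on more than 1 list. The listed neighbours of the replaced loci include Tmem223, which lies elsewhere. No 2 arrays were identical. Replicate numbers showed no clear pairing of the arrays, which cannot show that there was none. Same-numbered deviations correlated at -0.04, 0.14 and 0.11 between the CPA groups, and at -0.33 to 0.45 over 15 group pairs. The median was 0.06 for same numbers and -0.02 for different numbers. Alternatives covered filters, scaling, probe set choice, moderation, array weights, the replicate block, the arrays in the fit, a fold threshold and leaving out each array.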

Additional observations from a re-analysis of the deposited data

Results flagged for a closer look

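Between CPA and corn oil, the difference hCAR/hPXR minus wild type itself differed in 8 genes by the limma interaction test: Nebl by -3.06, Cyp2c55 by -4.46, Hsd17b6 by -4.43, Igfbp2 by -2.80, Tcim by 3.25, Gin1 by 1.87, Ddit4 by 1.82 and Slc8a1 by 1.65. Between CPA and DCB it differed in 8 genes: Nebl by -2.99, Cyp2c55 by -4.05, Cyp3a44 by -1.99, Ces2a by -1.55, Ccr6 by -0.89, Zbtb16 by 3.18, Gin1 by 1.71 and Slc8a1 by 1.43. Of 3700 tested probe sets with no gene or several genes, which the comparisons do not use, 3 were called in the CPA comparison, all higher in hCAR/hPXR. Their differences were 2.01 ± 0.35, 0.98 ± 0.19 and 2.10 ± 0.41.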

How the results depend on the processing

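The count of genes called between CPA-treated hCAR/hPXR and wild type livers, 35, lay between 24 and 41 under every alternative other than array weights (334) and leaving out an array (9 to 38). With the replicate block it was 33, of which 30 were among the 35. With only the 6 arrays compared it was 34, of which 18 were, and with all probe sets of a gene averaged it was 40, of which 30 were. The corn oil count of 3 was 10 with array weights, and 3 to 4 without 1 array. The DCB count of 5 was 111 with array weights, 12 without the 4 arrays with muscle transcripts, 3 with arrays centred on their median, 3 with a 2-fold threshold and 2 with only the groups compared, and 3 to 45 without 1 array. The 8 genes of CPA minus corn oil were 81 with array weights and 5 with probe sets averaged, and 1 to 10 without 1 array. The 8 genes of CPA minus DCB were 133 with array weights, 13 without the muscle arrays, 5 with a filter at the 75th percentile, 5 with probe sets averaged, 4 with centred arrays and 3 with only the groups compared, and 2 to 10 without 1 array. The cause of these changes was not tested. Of 109 named genes recomputed, 0 changed direction. Genes named only through a list were recomputed only if their unadjusted limma p was under 0.05, so a change of direction was unlikely from the start. Of the 35 called genes, 26 lost their call in at least 1 fit without an array. Signals under the array medians limit Nr1i2, Nebl, Slc8a1, Snhg3, Serpina5 and Obp2a in 1 group and Cela2a and Ccr6 in both, and Cyp3a11 lies near the highest signal of the arrays. The replicate block moved no count by over 1.5 times.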
